A study of Chlorocebus sabaeus with 4 samples.

Results

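Aquaporins are channel proteins of cell membranes. Those called orthodox pass mainly water, and the aquaglyceroporins also pass glycerol and other small uncharged solutes. In tissues in general, AQP1 is the water channel of capillary endothelium and red blood cells, AQP7 lets glycerol out of fat cells, and AQP9 carries glycerol into liver cells and is made by some white blood cells. The corpus luteum, which develops in the ovary after ovulation and secretes progesterone, is densely vascularised and takes up large amounts of lipid.

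The 8 genes described were AQP1, AQP3, AQP4, AQP5, AQP7, AQP8, AQP9 and AQP11, out of 19775 genes with a probe set of their own on the array. They are the water channels AQP1, AQP4, AQP5 and AQP8, the glycerol channels AQP3, AQP7 and AQP9, and AQP11, an unorthodox family member of intracellular membranes that was kept apart. All probe sets annotated to these symbols alone were taken, 14 in all for 7 of the genes. The only probe set of AQP7 is also annotated to its relative AQP7B, so its signal cannot be given to either gene. The list was selected on earlier results of the same arrays, among them the decrease of AQP9 in the ad libitum monkey. Changes within 1 monkey are therefore given as a description. The same holds for the members' ranks, intervals and p-values between the monkeys.

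RNA came from frozen corpus luteum of 2 adult female vervet monkeys (Chlorocebus sabaeus), both 16 years old. Monkey 1031 was on calorie restriction and monkey 1030 was fed ad libitum. Each gave 2 samples, numbered 1 and 2, and served as its own control for the effect of weight change. Which number was taken earlier is not stated. Each diet was thus 1 monkey, so diet and individual cannot be told apart, and each sample was 1 array. All values are log2 signals, in which a step of 1 is 2-fold, and levels of different probe sets are not compared.

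Sample 2 of the ad libitum monkey stood apart, with 912 to 1031 of 9888 genes at least 2-fold away from any other sample, while the remaining samples differed among themselves in 122 to 333. The arrays had median signals between 3.96 and 4.00. The 9888 genes are those at or above the median of mean signal (5.26), and AQP1, AQP3, AQP9 and AQP11 were among them. AQP9 reached that level through 1 sample, the ad libitum monkey's sample 1. The signal of bacterial control RNAs added at hybridisation averaged 10.54 and 10.09 in samples 2 and 1 of the calorie restriction monkey, and 9.85 and 10.58 in samples 2 and 1 from the ad libitum monkey. The signal of the 3' end of GAPDH exceeded that of its 5' end by 1.15 to 1.41 in the 4 samples. The sample order of the control RNAs was that of AQP9 below, and their part in the results was not tested.

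AQP9, the liver-type glycerol channel, varied most among the 7 measured genes. It read 5.87 and 5.02 in samples 2 and 1 of the calorie restriction monkey, and 3.78 and 9.19 in samples 2 and 1 from the ad libitum monkey. The ad libitum monkey's sample 1 was high and its sample 2 the lowest of all, with both samples of the other monkey in between.

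Within the calorie restriction monkey AQP9 was 1.81-fold higher in sample 2 (log2 change 0.85). Within the ad libitum monkey it was 42.5-fold lower in sample 2 (-5.41), at rank 3 among the decreases of the 9888 genes. Sample 2 lay below the median of that array's probe sets, at the 46.0th percentile, against the 96.4th percentile for sample 1, so the size of the ratio is unsure. AQP9 had a single probe set, and no second one could be set beside it.

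AQP3, a glycerol and water channel best known from the basolateral membrane of kidney collecting duct cells and from skin, was measured by 3 probe sets that disagreed. The brightest gave 5.57 and 5.72 in samples 2 and 1 of the calorie restriction monkey, against 5.07 and 5.42 in samples 2 and 1 from the ad libitum monkey. The second gave 5.28 and 5.28 in samples 2 and 1 of the calorie restriction monkey, against 5.16 and 5.20 in samples 2 and 1 from the ad libitum monkey. The third gave 4.72 and 4.93 in samples 2 and 1 of the calorie restriction monkey, and 3.27 and 4.62 in samples 2 and 1 from the ad libitum monkey. The change within the calorie restriction monkey was thus -0.15, -0.01 and -0.21. The same probe sets gave -0.35, -0.05 and -1.35 in the ad libitum monkey, past 2-fold on the dimmest of the 3. That probe set lay at the 36.0th percentile in sample 2, so the size of its change is unsure. All 6 changes had a negative sign, but those of the second probe set were negligible. On each probe set both samples of the calorie restriction monkey lay above both of the ad libitum monkey. On the second the gap was small, 5.28 against 5.20 at the closest. The 3 probe sets measure 1 gene, and 35.3% of the 9888 genes did not overlap between the monkeys either.

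The probe set shared by AQP7B and AQP7 hardly moved. It read 4.84 and 4.91 in samples 2 and 1 of the calorie restriction monkey, and 4.81 and 5.00 in samples 2 and 1 from the ad libitum monkey. The change within the calorie restriction monkey was -0.07, and that within the ad libitum monkey was -0.19.

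**Figure D1:**
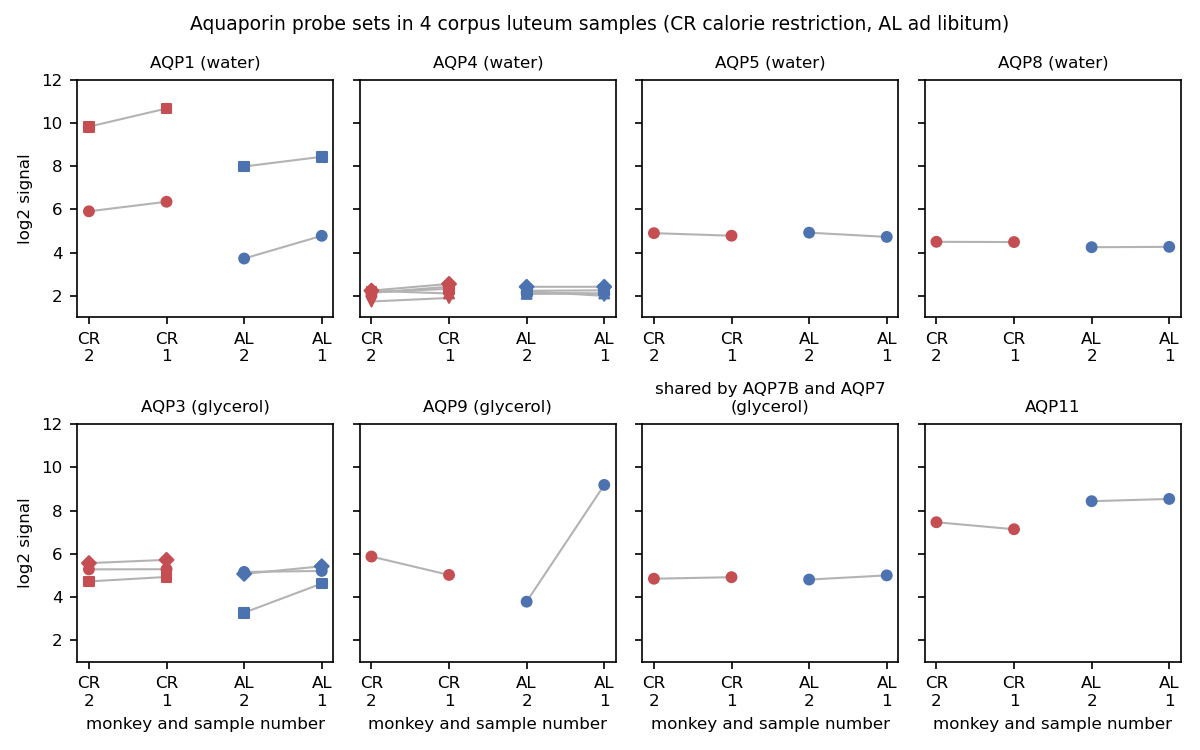
Log2 signal (vertical axis) of each aquaporin probe set in samples 2 and 1 of the calorie restriction monkey (CR, red) and of the ad libitum monkey (AL, blue); marker shapes are the probe sets of 1 gene, and grey lines join the 2 samples of 1 monkey. AQP9 spans 3.78 to 9.19 within the ad libitum monkey, both AQP1 probe sets are higher in the calorie restriction monkey, AQP11 is higher in the ad libitum monkey, and AQP4, AQP5 and AQP8 are nearly flat.

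AQP1, the endothelial and red cell water channel, divided the monkeys rather than the sample numbers. Its brighter probe set read 9.84 and 10.68 in samples 2 and 1 of the calorie restriction monkey, against 7.99 and 8.44 in samples 2 and 1 from the ad libitum monkey. The dimmer one read 5.92 and 6.36 in samples 2 and 1 of the calorie restriction monkey, against 3.73 and 4.78 in samples 2 and 1 from the ad libitum monkey. On both probe sets the 4 samples had the same order and the monkeys did not overlap.

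Sample 2 was the lower one in both monkeys. Within the calorie restriction monkey the change of AQP1 was -0.84 on the brighter and -0.44 on the dimmer probe set, both under 2-fold. Within the ad libitum monkey it was -0.45 on the brighter and -1.05 on the dimmer probe set, the second of which is past 2-fold. In sample 2 the dimmer one lay at the 45.0th percentile of the array, so the size of that change is likewise unsure.

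AQP11, a channel of the endoplasmic reticulum whose loss in mice gives cystic kidneys, had the opposite division. It read 7.46 and 7.14 in samples 2 and 1 of the calorie restriction monkey, against 8.44 and 8.54 in samples 2 and 1 from the ad libitum monkey. The samples of each monkey lay close together, with changes of 0.32 in the calorie restriction monkey and -0.10 in the ad libitum monkey, and the monkeys did not overlap.

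The remaining water channels were low or even. AQP4, the main water channel of astrocytes in brain, stayed between 1.74 and 2.55 on all 5 of its probe sets. The brightest of them lay between percentiles 9.51 and 19.2 of the arrays' probe sets. AQP5, known from salivary and other glands, read 4.90 and 4.78 in samples 2 and 1 of the calorie restriction monkey, and 4.93 and 4.73 in samples 2 and 1 from the ad libitum monkey. AQP8, a water channel of gut and liver cells, read 4.50 and 4.49 in samples 2 and 1 of the calorie restriction monkey, and 4.25 and 4.27 in samples 2 and 1 from the ad libitum monkey. AQP5 was slightly higher in sample 2 of each monkey (0.12 in calorie restriction, 0.20 in ad libitum), and the monkeys overlapped. AQP8 was almost identical within each monkey and did not overlap between them.

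Set side by side as groups, the channels differed through 1 gene. In the calorie restriction monkey the water channels AQP1, AQP4, AQP5 and AQP8 had changes from -0.84 to 0.12, with a median of -0.15. The 2 measured glycerol channels had 0.85 (AQP9) and -0.15 (AQP3), with a median of 0.35. In the ad libitum monkey the water channels had changes from -0.45 to 0.20, with a median of -0.01, and the glycerol channels -5.41 (AQP9) and -0.35 (AQP3), with a median of -2.88. With the shared AQP7B and AQP7 probe set counted as well, the glycerol median was -0.07 in the calorie restriction monkey and -0.35 in the ad libitum monkey, so the gap between the groups rested on AQP9. The medians over all 9888 genes were -0.03 in the calorie restriction monkey and -0.01 in the ad libitum monkey. AQP4, AQP5 and AQP8 were below the level filter that defines those genes. The water channel medians therefore rest largely on low signals and say little about expression.

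By the brightest probe set, 0 of the 7 measured genes were 2-fold or more apart in the calorie restriction monkey, where 1.23% of the 9888 genes were. In the ad libitum monkey 1 was, AQP9, where 9.25% of all genes were (6.58% lower). Since AQP9 was known when the list was made, nothing is read from these counts. With 1 array a side these changes have no replicate check and no test.

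**Figure D2:**
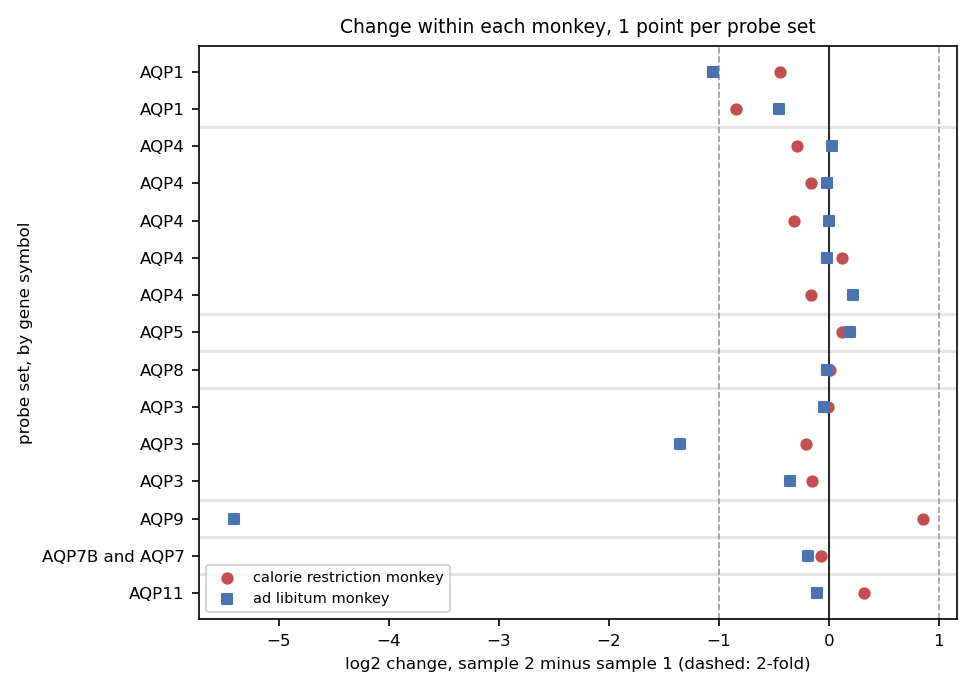
Log2 change, sample 2 minus sample 1 (horizontal axis), for each aquaporin probe set (rows), with red circles for the calorie restriction monkey and blue squares for the ad libitum monkey; dashed lines mark 2-fold. AQP9 stands alone at 0.85 (calorie restriction) and -5.41 (ad libitum), single probe sets of AQP1 (-1.05) and AQP3 (-1.35) pass 2-fold in the ad libitum monkey, and the other points lie within 2-fold.

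For the diet comparison, AQP1 averaged 10.26 ± 0.60 in the calorie restriction monkey and 8.22 ± 0.32 in the ad libitum monkey (SD, n = 2 samples each). The log2 difference was 2.04 (SE 0.36, 95% interval 1.11 to 2.97), or 4.12-fold, the 27th largest increase among the 9888 genes. The dimmer probe set gave 1.88. AQP11 averaged 7.30 ± 0.23 in the calorie restriction monkey and 8.49 ± 0.07 in the ad libitum monkey. Its difference was -1.19 (SE 0.21, 95% interval -1.74 to -0.64), or 2.28-fold lower, at rank 95 among decreases. Both differences exceeded the spread between samples of 1 monkey, and neither passed Benjamini-Hochberg adjustment over all genes in limma (unadjusted p = 0.0026 for AQP1 and 0.0027 for AQP11, adjusted p = 0.597 for both). The members were chosen with earlier results of these arrays known. Their ranks, intervals and unadjusted p-values are therefore a description.

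In that fit limma called 0 of 9891 genes at an adjusted p of 0.05, a share of 0%, and 521 had an unadjusted p under 0.05. Without the ad libitum monkey's sample 1, 473 genes were called. In that fit the ad libitum monkey is represented by the sample that stood apart, which is assumed to vary as the calorie restriction samples do. The adjusted p in limma was then 0.0526 for AQP1 and 0.0666 for AQP11, still above 0.05. Over the alternatives without a block that adjusted p ran from 0.0526 to 1.00 for AQP1 and from 0.0666 to 1.00 for AQP11. With 1 monkey a diet, the p-values rest on the spread of samples within a monkey, which may be technical, and not on the spread from monkey to monkey.

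AQP9 could not be placed between the diets. It averaged 5.45 ± 0.60 in the calorie restriction monkey and 6.49 ± 3.83 in the ad libitum monkey (SD, n = 2 each), a difference of -1.04 (95% interval -5.63 to 3.55). Without the ad libitum monkey's sample 1 the difference was 1.67, and without its sample 2 it was -3.74. The direction thus followed which sample was left out.

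AQP3 differed by 0.40 (95% interval -0.09 to 0.89) on its brightest probe set and by 0.10 and 0.88 on the others. AQP8 differed by 0.24 (-0.09 to 0.57), AQP5 by 0.02 (-0.38 to 0.41) and AQP4 by -0.02 (-0.39 to 0.34). For AQP3, AQP4, AQP5, AQP8 and AQP9 the limma adjusted p was 0.896 or more. The intervals of AQP5 and AQP8 leave out a 2-fold difference in signal in either direction. That of AQP3 does so too, but it belongs to the brightest probe set alone. Between the ad libitum samples the second AQP3 probe set had an SD of 0.03 and the dimmest 0.96. AQP4 read too low for its interval to limit a difference in expression. AQP5 and AQP8 were below the level filter as well, so their intervals are limits on signal and may not limit expression. The samples of the monkeys did not overlap for AQP1, AQP3, AQP8 and AQP11, that is for 4 of the 7 measured genes. Past the level filter it was 3 of 4, where 35.3% of the 9888 genes did not overlap.

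**Figure D3:**
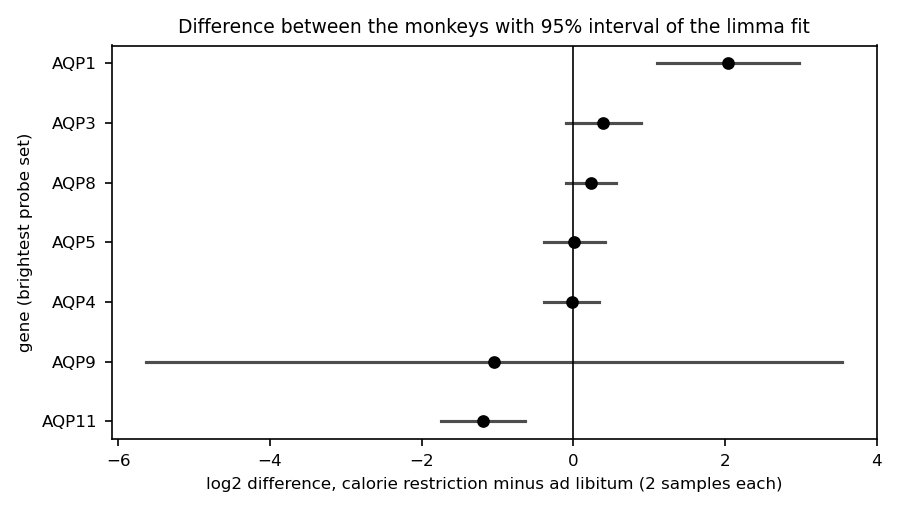
Log2 difference of calorie restriction minus ad libitum (horizontal axis, 2 samples each) for the brightest probe set of each gene (rows); points are the difference and bars the 95% interval of the limma fit over all genes. AQP1 (2.04) and AQP11 (-1.19) lie on opposite sides of 0 with bars that leave it out, and the bar of AQP9 spans -5.63 to 3.55. The genes were chosen with earlier results of these arrays known, so the bars are a description.

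Cell type markers were set beside the members, since in bulk tissue fewer cells of a type and less RNA per cell cannot be told apart. Markers of luteal steroidogenic cells had a mean log2 signal of 10.49 and 9.70 in samples 2 and 1 of the calorie restriction monkey, and 7.70 and 11.38 in samples 2 and 1 from the ad libitum monkey. Their summed signal on the linear scale ran from 12786 to 20603 in the calorie restriction monkey and from 4302 to 31247 in the ad libitum monkey. This is the sample order of AQP9, and 8 of the 9 measured luteal markers had that exact order, against 9.54% of the 9888 genes. The control RNAs added at hybridisation had this order as well. All marker lists were chosen with earlier results of these arrays known, and markers of 1 cell type are not independent of each other. The shares given for them are therefore a description. Sample 2 had 4 of the 9 at 2-fold or more above sample 1 in the calorie restriction monkey (median 0.77). Of the 9888 genes, 1.23% were 2-fold apart there. In the ad libitum monkey all 9 were 2-fold or more lower in sample 2 (median -3.68), against 6.58% of the 9888 genes.

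Markers of macrophages and neutrophils, white blood cells known to make AQP9, had list means in other sample orders. Macrophage markers averaged 7.22 and 7.44 in samples 2 and 1 of the calorie restriction monkey, and 7.63 and 7.16 in samples 2 and 1 from the ad libitum monkey. The mean was thus lowest in the ad libitum sample 1, where AQP9 was highest. Of 12 macrophage markers, 1 was 2-fold lower in sample 2 of the calorie restriction monkey, where 1.23% of the 9888 genes were 2-fold apart. In sample 2 of the ad libitum monkey 3 were 2-fold higher and 1 lower, against 2.67% and 6.58% of the 9888 genes. Their summed linear signals were 2963 to 3121 in the calorie restriction monkey and 2458 to 6298 in the ad libitum monkey. CHIT1, the chitinase of lipid-laden macrophages, gave 46.4% of the highest sum, with a change of -1.94 in the calorie restriction monkey and 3.58 in the ad libitum monkey. Without it the sums were 2947 to 3059 in the calorie restriction monkey and 2213 to 3375 in the ad libitum monkey. The means were then 7.51 and 7.58 in samples 2 and 1 of the calorie restriction monkey, and 7.28 and 7.09 in samples 2 and 1 from the ad libitum monkey, with sample 1 of the ad libitum monkey still lowest. CD163, a scavenger receptor, had -0.06 in the calorie restriction monkey and -1.28 in the ad libitum monkey. Neutrophil markers averaged 3.66 and 3.57 in samples 2 and 1 of the calorie restriction monkey. They averaged 3.38 and 3.47 in samples 2 and 1 from the ad libitum monkey. Within each monkey their mean thus went in the direction of AQP9, and it was lowest in the same sample. None of the 10 moved 2-fold within either monkey. Their summed linear signal was 159 to 176 in the calorie restriction monkey and 140 to 152 in the ad libitum monkey. Of the 10 neutrophil genes, 2 (CXCR2 and CEACAM8) stayed under the 25th percentile of the arrays in all 4 samples. CSF3R, at 5.33 to 5.54, was the only one past the level filter, and FPR1 read 4.81 to 5.40.

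The genes nearest to AQP9 in pattern, by Euclidean distance between log2 profiles centred on their own means over the 4 samples, included 3 of the luteal markers. In order of distance they were HSD11B1 (1.16), which makes active cortisol, CPO (1.26), a carboxypeptidase, and HSD3B2 (1.39), which makes progesterone. Next came SCARB1 (1.55), the HDL receptor, and ACP3 (1.65), a phosphatase. None lay within 1 of AQP9. Their changes ran from 0.26 to 1.75 in the calorie restriction monkey and from -4.38 to -3.24 in the ad libitum monkey, where the decrease of AQP9 exceeded all 5. By Pearson r in place of distance none of these 5 was among the first 5, and 103 genes had an r above 0.99 over the 4 samples.

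Endothelial markers had the sample order of AQP1. They averaged 7.68 and 8.01 in samples 2 and 1 of the calorie restriction monkey, against 6.44 and 7.48 in samples 2 and 1 from the ad libitum monkey. Of 12 markers, 11 were higher in the calorie restriction monkey, 5 of them 2-fold or more, where 2.33% of the 9888 genes were 2-fold higher (3.77% in either direction). Their median difference was 0.87, against 2.04 for AQP1 and -0.01 over the 9888 genes. The list mean of the ad libitum sample 1 (7.48) was near that of the calorie restriction sample 2 (7.68). Much of the difference thus rested on the ad libitum sample 2 (6.44), the sample that stood apart. None of the 12 passed the limma test. In 7 of the 12 the 4 samples had exactly the order of AQP1, against 7.14% of the 9888 genes. The summed linear signal was 3443 to 4576 in the calorie restriction monkey and 1354 to 2933 in the ad libitum monkey. Within the ad libitum monkey all 12 were lower in sample 2 (median -0.97), 6 of them 2-fold, against 6.58% of the 9888 genes. There the brighter AQP1 probe set had -0.45 and the dimmer -1.05. The endothelial median was thus of similar size within the ad libitum monkey and between the monkeys, whereas the brighter AQP1 probe set differed more between the monkeys.

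Markers of red cells, another known site of AQP1, averaged 5.80 and 5.56 in samples 2 and 1 of the calorie restriction monkey. They averaged 4.98 and 5.24 in samples 2 and 1 from the ad libitum monkey. Of 7 measured, 6 were higher in the calorie restriction monkey, 2 of them 2-fold or more (median difference 0.36). Only these 2 were past the level filter, and 2.33% of the 9888 genes were 2-fold higher. The summed linear signals of all 7 were 5341 to 8212 in the calorie restriction monkey and 1543 to 3459 in the ad libitum monkey. The beta globin gene HBB gave 92.4% to 97.2% of those sums and differed by 1.56. The part of endothelial, red, luteal or immune cells in the aquaporin values was not tested.

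**Figure D4:**
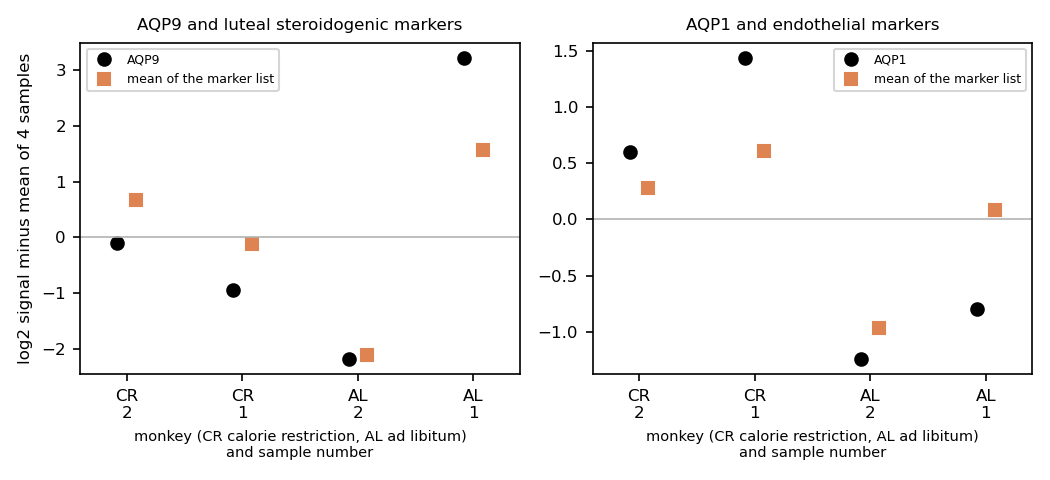
Log2 signal minus the mean of the 4 samples (vertical axis) in samples 2 and 1 of the calorie restriction monkey (CR) and of the ad libitum monkey (AL), with black circles for AQP9 (left) and AQP1 (right) and orange squares for the mean of the 9 luteal steroidogenic (left) and 12 endothelial (right) markers; each panel has its own axis. Within each panel the gene and the marker mean put the 4 samples in the same order.

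The genes nearest to AQP1 in pattern were INA (0.32), a neuronal intermediate filament, ALCAM (0.44), a cell adhesion molecule, PAMR1 (0.45), SLC27A2 (0.52), a fatty acid transport and activation protein, and PDE8B (0.62), which degrades cyclic AMP. No endothelial marker was among them. In all, 58 genes lay within a distance of 1, and the 5 differed between the monkeys by 1.65 to 2.35. Those nearest to AQP11 were ATAD2 (0.25), a chromatin protein of dividing cells, ECI2 (0.26), an enzyme of fatty acid oxidation, CENPW (0.32), a kinetochore protein, CKB (0.32), brain-type creatine kinase, and MT2A (0.32), a metallothionein. They differed by -1.42 to -0.90, and 1174 genes lay within 1 of AQP11. The profile of AQP3 was too flat to single out genes, since 8515 genes lay within 1 of it. The closest were ACSS3, RFTN1, PTPN13, JMJD8 and SCAMP1, at 0.04 to 0.06.

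Of the remaining human aquaporin genes, AQP2, AQP6, AQP10 and MIP had 7 probe sets of their own. AQP2 is the vasopressin-regulated channel of the kidney, and MIP is the water channel of the eye lens. Their signals lay between 2.57 and 5.51, and none moved 2-fold in either monkey. The changes ran from -0.27 to 0.21 in the calorie restriction monkey and from -0.39 to 0.42 in the ad libitum monkey. A further 2 probe sets were shared by AQP12A and AQP12B and changed by 0.02 to 0.29.

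Genes that make, store or release glycerol and its lipids mostly changed by less than 2-fold. Of 17 measured, none was 2-fold apart in the calorie restriction monkey (median 0.01), where 1.23% of all genes were. In the ad libitum monkey 2 were 2-fold lower and none higher in sample 2 (median 0.05), against 6.58% and 2.67% of the 9888 genes. Past the level filter 1 of 13 was 2-fold apart there. DGAT1, which completes triglyceride synthesis, read 9.07 and 8.62 in samples 2 and 1 of the calorie restriction monkey, and 6.17 and 9.03 in samples 2 and 1 from the ad libitum monkey (-2.87). ABHD5, the activator of the fat cell lipase, had -1.70 in the ad libitum monkey, at a level below the median of genes. In the same monkey the triglyceride lipase PNPLA2 had -0.32, the hormone-sensitive lipase LIPE 0.11, the lipid droplet protein PLIN2 -0.84 and the glycerol-3-phosphate dehydrogenases GPD1 0.32 and GPD2 -0.57. Adipocyte markers were mostly low, with ADIPOQ under the 25th percentile in all samples. None of the 7 moved 2-fold in the calorie restriction monkey. In the ad libitum monkey FABP4 (1.31) and THRSP (1.01) were 2-fold higher in sample 2, as were 2.67% of the 9888 genes. The list's summed linear signal was 126 to 135 in the calorie restriction monkey and 167 to 290 in the ad libitum monkey.

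Among 17 measured genes of cell volume control and osmotic response, SLC12A2, the sodium, potassium and chloride cotransporter, had -0.43 in the calorie restriction monkey and -1.03 in the ad libitum monkey. It was the only one 2-fold apart in the ad libitum monkey, and none was in the calorie restriction monkey. The list's median was -0.13 in the calorie restriction monkey and -0.14 in the ad libitum monkey. Of 4 measured genes of the dystrophin complex, which anchors AQP4 in brain, DTNA was the only one 2-fold apart. Its change was -0.38 in the calorie restriction monkey and 1.16 in the ad libitum monkey. For both lists, 1.23% of the 9888 genes were 2-fold apart in the calorie restriction monkey and 9.25% in the ad libitum monkey.

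A list of transcriptional regulators, among them known regulators of aquaporin genes, moved both ways in the ad libitum monkey. There 2 of 10 were lower and 2 higher by 2-fold, against 6.58% and 2.67% of all genes. None moved 2-fold in the calorie restriction monkey. CEBPB, a factor of inflammation and fat cell formation, had -0.72 in the calorie restriction monkey and -2.06 in the ad libitum monkey. HIF1A, the oxygen-sensing factor, had 0.17 in the calorie restriction monkey and -1.62 in the ad libitum monkey. PPARG, which drives AQP7 in fat cells, had -0.14 in the calorie restriction monkey and 1.02 in the ad libitum monkey. The estrogen receptor ESR1 had -0.57 in the calorie restriction monkey and 1.02 in the ad libitum monkey. Of the 10, 9 were past the level filter and entered the limma test of the difference between the monkeys, and none of those 9 passed it.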

How the data were processed

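Corpus luteum RNA was converted to labelled cRNA and put on 1 array a sample, per the labels' protocols. The authors deposited log2 values, 1 per probe set. Affymetrix Power Tools and the RMA method, which corrects background, equalises the arrays' quantiles and summarises probes, were used, per the submitters' processing notes. Their versions were not stated there. Probe sets follow human genes, and a mismatch with the vervet sequence can lower a signal, which bears on differences between the monkeys if they carry different alleles. All 8 symbols are in the RefSeq vervet annotation.

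Of 54675 probe sets, 62 are controls, 1801 have several symbols and 11721 none; the rest represent 19775 genes, each by its brightest probe set. The difference between monkeys was fitted with limma 3.58.1 in R 4.3.3 (eBayes with trend, Benjamini-Hochberg over 9888 genes past the level filter and 3 members below it). On simulated data it found 1 of 67 planted log2 differences of 1, then 39 of 67 planted at 2, then 58 of 66 planted at 3, and made 7 false calls. Members and lists were chosen with earlier results of these data known. Named genes were all members, the other aquaporins, up to 4 genes a list 2-fold apart, and the 5 nearest patterns; GPD1, GPD2, LIPE, PLIN2, PNPLA2, ADIPOQ, CXCR2, CEACAM8, CSF3R and FPR1 were added after their values were seen. Theca, granulosa, epithelial and smooth muscle markers are in the closing section. The number of arrays limits precision.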

Additional observations from a re-analysis of the deposited data

Results flagged for a closer look

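AQP9 was marked for a closer look because its change had opposite signs in the monkeys, past 1.5-fold in each. It was 0.85 in the calorie restriction monkey and -5.41 in the ad libitum monkey, on the log2 scale, for sample 2 minus sample 1. With 1 array a side the difference between these changes was not tested.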

How the results depend on the processing

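Genes called between the monkeys numbered 0 under every alternative, including the sample number as a replicate block (0) and the crossed replicate block (0), except when a sample was left out, where the count ran from 0 to 473. The samples share a number and nothing else in the labels, and their deviations had a correlation of -0.27. The AQP9 difference of -1.04 ran from -3.74 without the ad libitum monkey's sample 2 to 1.67 without its sample 1. Changes of 2-fold, 122 in the calorie restriction monkey and 915 in the ad libitum monkey, came to 80 and 593 when a gene was the mean of its probe sets, and to 59 and 546 with the level filter at the 75th percentile. They came to 588 and 2448 at 1.5-fold, and to 20 and 312 at 3-fold. At 1.5-fold, 2 members were apart in the calorie restriction monkey, AQP1 and AQP9. The glycerol channel median of -2.88 in the ad libitum monkey was -0.35 with the shared AQP7B and AQP7 probe set, an alternative added after seeing the data, as were the crossed block and the macrophage markers without CHIT1. Each measured member kept its change within 0.50 under cyclic loess, the mean of all probe sets and leaving out less specific probe sets. Why the others moved was not tested, beyond fewer genes and other thresholds.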

Other observations

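Of the other ovarian markers, the theca list was the one in which all members were 2-fold apart in 1 monkey. For scale, 1.23% of the 9888 genes were 2-fold apart in the calorie restriction monkey, and 9.25% were in the ad libitum monkey (2.67% higher and 6.58% lower in sample 2). Of 5 theca markers, 2 were 2-fold lower in sample 2 of the calorie restriction monkey (median -0.94), and all 5 were 2-fold higher in sample 2 of the ad libitum monkey (median 1.57). Of 6 granulosa markers, none was 2-fold apart in the calorie restriction monkey (median 0.16), and 3 were higher and 1 lower in sample 2 of the ad libitum monkey (median 0.82). Of 10 surface epithelial markers, 1 was higher in the calorie restriction monkey (median 0.17) and 3 were lower in the ad libitum monkey (median -0.27). Of 10 smooth muscle and pericyte markers, 2 were higher in the calorie restriction monkey (median 0.19), and 1 was higher and 1 lower in the ad libitum monkey (median 0.30).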
